A study of Homo sapiens with 4 samples.

Results

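Antisense transcripts, RNAs read from the strand opposite to a gene, were followed beside their sense genes in cisplatin-resistant head and neck squamous cell carcinoma (HNSCC) cells. Members were all array probes whose gene name ends in -AS and a number, and the name before the hyphen was taken as the sense gene. The rule gave 1569 probes of 944 antisense transcripts, out of 58201 probes of 43317 gene names on the array. A value was obtained for 943 of them, since the only spot of 1 transcript was marked as an outlier. For 922 of these the sense gene had a value too, which gave 922 pairs over 850 sense genes, and 21 transcripts, such as those of the HOX clusters, had no sense probe.

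The samples were 4: the parental HNSCC lines HN4 and HN30, for which the labels name no drug, and the resistant lines HN4/DDP and HN30/DDP. Cisplatin is a platinum drug whose adducts block DNA replication. Each resistant line had been selected from its parent under rising doses of it and was then maintained at 20 μM, for 48 h by the labels. Each sample was 1 one-colour Agilent array, so the difference within a line has no test, and resistance cannot be told apart from the presence of the drug at harvest. A resistant line is 1 selected culture. A level is an average over all cells of a culture, so less RNA per cell and fewer cells with the transcript cannot be told apart.

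Many genes have a transcript that runs the other way. Some antisense transcripts start beside the start of the sense gene and run away from it, so that both may share a promoter, while others run across the body of the sense gene. Well studied ones act on the gene they face, by covering its RNA, by reading through its promoter or by recruiting chromatin factors, and the 2 partners may move together or against each other. Many others have no known function, and a shared name only says that the genes lie beside or across each other.

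A level is log2 of the scanner's processed intensity minus the 75th percentile of that array, and a difference is the level in the resistant line minus that in the parental line. The scanner SD beside a difference comes from the scanner's error per spot and holds no biological spread. A transcript is called higher when its difference is above 2 and the resistant array has it well above background, and lower when its difference is below -2 and the parental array does. Levels of different probes are not compared as amounts of RNA, and brightness serves only to group probes by their signal. The 4 arrays share 1 slide and 1 scan, so neither separates the groups. Between 55.3% and 63.6% of the spots were well above background, and 0 spots were saturated. Of 9 squamous epithelial markers, 9 were well above background in HN4, HN4/DDP and HN30 and 8 in HN30/DDP, where the keratin KRT6A was not. The keratin KRT5 was lower in both resistant lines, from 2.79 to -1.26 in HN4/DDP and from 2.84 to 0.91 in HN30/DDP. TP63 and EPCAM also fell in both, by less. The keratins KRT14 and KRT17, and DSG3 and CDH1, rose in both. KRT14 went from -2.68 to -0.35 and from 0.17 to 0.39, and KRT17 from -1.78 to 1.51 and from 0.54 to 0.73. DSG3 went from -0.62 to 1.22 and from -1.34 to -0.80, and CDH1 from 4.40 to 4.98 and from 3.27 to 4.60. KRT6A went from -2.97 to 0.35 in HN4/DDP, and SFN from 6.98 to 7.13 and from 6.93 to 5.97. Of 4 mesenchymal markers, VIM was higher in both resistant lines, from -3.35 to -0.60 and from -2.46 to -1.51. CDH2 was lower in both, from -1.835 to -2.029 and from 0.49 to -1.78. FN1 went from -3.11 to -3.30 in HN4/DDP and was well above background in HN30/DDP but not in HN30. ZEB1 was well above background in HN4/DDP only. Of 3 leukocyte markers, 1 had no value, CD3E was well above background in HN30/DDP only, and the probe of PTPRC was so on every array, with levels from -3.10 to -2.84. Whether the PTPRC probe reads another RNA in these lines was not analysed here. Of the fibroblast markers, COL3A1 was not well above background on any array, COL1A1 was higher in both resistant lines (-1.85 to -0.13 and -3.15 to -0.72), and PDGFRB was at -3.61 and -3.62 in HN4 and HN4/DDP and at -3.73 and -3.10 in HN30 and HN30/DDP. The part of these markers in the results below was not tested.

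The probes of 10 transcripts that the results turn on are printed first, since a probe is all that the array reads of each. Each is the 60-base probe as the array's file gives it, 5′ to 3′, in lower case throughout. Positions are those of the array's design on hg19, and no annotation of that build was used, so whether a probe lies in an exon or an intron was not analysed here. The probes of UNC5B-AS1 (chr10:72977006-72977065, minus strand), RNF157-AS1 (chr17:74150652-74150711, plus strand), RUNDC3A-AS1 (chr17:42384724-42384783, minus strand) and CCND2-AS1 (chr12:4357934-4357993, minus strand) read transcripts higher in both resistant lines:
UNC5B-AS1: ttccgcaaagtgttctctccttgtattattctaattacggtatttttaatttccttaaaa
RNF157-AS1: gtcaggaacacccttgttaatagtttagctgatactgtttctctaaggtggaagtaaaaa
RUNDC3A-AS1: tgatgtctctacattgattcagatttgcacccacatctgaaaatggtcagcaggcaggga
CCND2-AS1: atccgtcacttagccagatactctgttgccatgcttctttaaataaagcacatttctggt

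The probe of DNAJB5-AS1 (chr9:34985601-34985660, minus strand) reads a transcript lower in both lines. Those of NR2F1-AS1 (chr5:92746995-92747054, minus strand) and PRKAG2-AS1 (chr7:151576126-151576185, plus strand) read transcripts lower in HN4/DDP, the first together with its sense gene and the second without it:
DNAJB5-AS1: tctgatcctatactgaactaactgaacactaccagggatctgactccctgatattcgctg
NR2F1-AS1: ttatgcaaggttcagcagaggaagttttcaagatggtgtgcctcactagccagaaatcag
PRKAG2-AS1: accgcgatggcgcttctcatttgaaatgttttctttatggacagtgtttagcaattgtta

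In HN30/DDP, PCNA-AS1 (chr20:5100555-5100614, plus strand) was lower together with its sense gene. SPAG5-AS1 (chr17:26944336-26944395, plus strand) and PRKAR2A-AS1 (chr3:48889355-48889414, plus strand) were higher while their sense genes were lower:
PCNA-AS1: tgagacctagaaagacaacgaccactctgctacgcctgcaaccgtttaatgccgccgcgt
SPAG5-AS1: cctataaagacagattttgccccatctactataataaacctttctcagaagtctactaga
PRKAR2A-AS1: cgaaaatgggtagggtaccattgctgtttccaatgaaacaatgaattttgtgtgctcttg

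The first comparison asks which antisense transcripts stood at another level in a resistant line than in its parental line. In HN30/DDP, 77 of 943 antisense transcripts were called higher, 8.17%, beside a background of 5.48% of all gene names, and 7 were called lower, 0.742% beside 1.8%. In HN4/DDP, 22 were called higher, 2.33% beside a background of 2.24%, and 18 lower, 1.91% beside 1.36%. At the lower threshold of 1, HN30/DDP had 170 higher, 18% beside 12.9%, and 45 lower, 4.77% beside 8.67%. HN4/DDP had 51 higher, 5.41% beside 5.77%, and 60 lower, 6.36% beside 5.36%. Among those measured (well above background) on both of a line's arrays, UNC5B-AS1, PAX8-AS1 and RNF157-AS1 led in HN30/DDP, with differences of 5.52, 5.14 and 4.02. In HN4/DDP these were MRVI1-AS1, UNC5B-AS1 and LDLRAD4-AS1, at 3.69, 3.50 and 2.92. The lowest were NR2F1-AS1, PRKAG2-AS1 and USP30-AS1 in HN4/DDP, at -3.69, -3.37 and -3.05, and PTPRG-AS1, DGUOK-AS1 and DPH6-AS1 in HN30/DDP, at -2.66, -2.35 and -2.21.

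The share of higher calls in HN30/DDP depends on the scaling. With each array centred on its median, the median difference of all gene names moved by -0.42, and 50 antisense transcripts were higher and 18 lower. With quantile normalization 59 were higher and 12 lower. The share of higher among the antisense calls was thus 91.7%, 73.5% and 83.1% under the 3 scalings, beside 75.3%, 50.2% and 70.5% among all gene names. Over the 508 antisense transcripts well above background on both HN30 arrays, the median difference was 0.12, against -0.07 for all gene names, and it was -0.30 against -0.49 with median centring and -0.14 against -0.16 with quantile normalization, so its sign depends on the scaling. In HN4/DDP the median over 518 antisense transcripts was -0.16, against -0.09 for all gene names, and the shares of higher calls were 55.0%, 56.4% and 57.9%, beside 62.2%, 63.7% and 63.1% among all gene names.

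**Figure D1:**
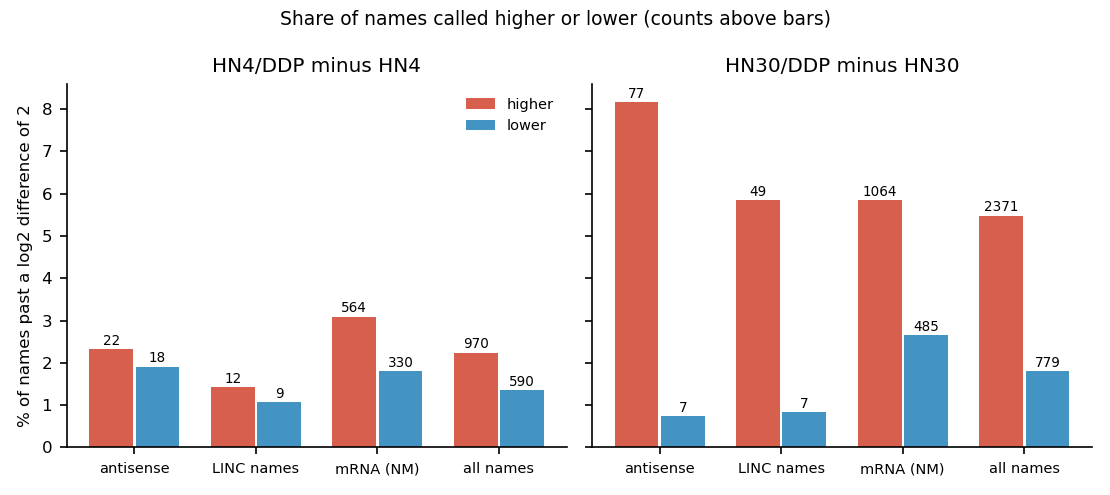
Share of names called higher (red) or lower (blue) past a log2 difference of 2, in per cent of the names with a value, for antisense transcripts, long intergenic transcripts (LINC names), names with an mRNA accession (NM) and all names, with the counts above the bars and 1 array per condition. Antisense transcripts stood at 8.17% higher and 0.742% lower in HN30/DDP, and LINC names at 5.85% and 0.835%.

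The long intergenic RNAs, 838 names that start with LINC, are also non-coding. They had 5.85% higher and 0.835% lower calls in HN30/DDP, and 1.43% and 1.07% in HN4/DDP. Genes with an mRNA accession, 18227 names, had 5.84% and 2.66% in HN30/DDP, and 3.09% and 1.81% in HN4/DDP. In HN30/DDP the difference also moved with brightness: the median difference of all gene names was 0.09, 0.15, -0.18 and -0.42 in 4 groups of equal size from the dimmest to the brightest. The antisense transcripts in these 4 groups stood at 0.09, 0.25, -0.02 and -0.32, and the dimmer 2 groups held 188 and 207 of the 508. With the trend with brightness taken off, an alternative chosen after seeing the data, 74 were higher and 9 lower.

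Many calls rest on a transcript that was dim on one side. Of the 77 higher in HN30/DDP, 43 were not well above background in HN30, and of the 22 higher in HN4/DDP, 13 were not so in HN4. Such a difference is only a bound, given here as a fold against the lowest signal well above background. Some called transcripts had another probe well above background on at least 1 array of the line, which may be dim on the other. At least 1 such probe moved the same way by over 1 for 19 of 22 transcripts higher in HN30/DDP and 3 of 3 lower. In HN4/DDP this held for 4 of 4 higher and 6 of 7 lower. With normexp background correction, which damps dim signals, 16 were higher and 1 lower in HN30/DDP, and 3 higher and 2 lower in HN4/DDP.

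The second comparison sets one line beside the other. Antisense transcripts higher in both resistant lines numbered 8, 0.848% beside a background of 0.688%, and 2 were lower in both, 0.212% beside 0.0808%. At a threshold of 1 these were 26 and 13, 2.76% beside 2.66% and 1.38% beside 1.18%. The 8 were UNC5B-AS1, RNF157-AS1, RUNDC3A-AS1, MRVI1-AS1, CCND2-AS1, FAM212B-AS1, SEMA3B-AS1 and LURAP1L-AS1. The 2 were DNAJB5-AS1 and DPH6-AS1. With dim signals set to the lowest signal well above background, 4 of the 8 and 1 of the 2 kept the call, namely UNC5B-AS1, RNF157-AS1, RUNDC3A-AS1, MRVI1-AS1 and DPH6-AS1.

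UNC5B-AS1 lies across the gene of UNC5B, a receptor for netrins that guides axons and can trigger cell death when it has no ligand. Its level was -1.15 and 2.36 in HN4 and HN4/DDP, and -3.60 and 1.91 in HN30 and HN30/DDP. Both resistant arrays stood above both parental ones. HN4/DDP was 11.3-fold higher (log2 difference 3.50, scanner SD 0.205), HN30/DDP 45.7-fold (log2 difference 5.52, scanner SD 0.250). UNC5B itself was at -1.63, -1.21, -2.34 and 0.99. The sense gene was thus 10.1-fold higher in HN30/DDP and 1.34-fold higher in HN4/DDP, with scanner SDs of 0.213 and 0.208 in log2.

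RNF157-AS1 faces RNF157, a ubiquitin ligase. Its level was -2.31, 0.47, -3.77 and 0.25 in HN4, HN4/DDP, HN30 and HN30/DDP, a difference of 2.78 (scanner SD 0.211) and 4.02 (scanner SD 0.260). Its other probe, also well above background throughout, differed by 1.12 and 1.40, so both probes were higher in both lines by different amounts. RNF157 differed by -0.20 in HN4/DDP, and in HN30/DDP it was at least 3.04-fold higher, since it was dim in HN30.

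RUNDC3A-AS1 starts close to RUNDC3A, which encodes a RUN-domain protein of neurons and endocrine cells. The antisense level was -3.20, -0.89, -3.67 and -0.79, a 4.94-fold and a 7.37-fold higher level (log2 scanner SDs 0.229 and 0.256). RUNDC3A was at -4.38, -3.37, -3.92 and -3.41. Its differences of 1.01 (scanner SD 0.327) and 0.51 (scanner SD 0.294) were smaller than those of the antisense transcript.

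MRVI1-AS1, named IRAG1-AS1 in RefSeq, faces MRVI1, whose protein takes part in cyclic GMP signalling at calcium stores. Its level was -4.12, -0.43, -4.39 and -2.23, so it was 12.9-fold higher in HN4/DDP and 4.48-fold higher in HN30/DDP. MRVI1 was well above background in HN4/DDP only, where it was at least 11.4-fold higher.

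CCND2-AS1 faces CCND2, which encodes cyclin D2, a driver of the G1 phase. Both partners were dim in both parental lines, with levels of -6.94 and -6.91 for the antisense transcript and -7.05 and -4.79 for the gene. In HN4/DDP and HN30/DDP the antisense transcript stood at -3.46 and -2.40, at least 2.47-fold and 4.68-fold higher. CCND2 stood at -2.45 and -0.81, at least 4.96-fold and 14.1-fold higher. Each partner was thus well above background in both resistant lines and in neither parental line.

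SEMA3B-AS1, the partner of the semaphorin gene SEMA3B, was dim in both parental lines and at least 2.01-fold higher in HN4/DDP and 2.87-fold higher in HN30/DDP. SEMA3B was measured on every array, at -0.08, 3.77, 1.28 and 4.11, which is 14.4-fold and 7.08-fold higher. In HN4/DDP, LURAP1L-AS1 was 5.29-fold higher, and at least 3.10-fold so in HN30/DDP, while LURAP1L differed by 0.70 and 1.73. FAM212B-AS1, named INKA2-AS1 in RefSeq, was at least 1.05-fold and 1.69-fold higher, little above the floor of the array. Its other probe, not well above background on both arrays of either line, differed by -1.77 and -0.16, so its call rests on 1 probe.

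DNAJB5-AS1, which RefSeq calls DNAJB5-DT, starts beside DNAJB5, a gene of the HSP40 family of co-chaperones, and runs away from it. Its level was -3.45, -7.28, -2.87 and -6.71, and it was not well above background in either resistant line. It was thus at least 2.91-fold lower in HN4/DDP and 4.20-fold lower in HN30/DDP, and the first of these bounds is smaller than the call threshold. DNAJB5 was at 0.21, 0.76, 0.47 and 1.93, so it was 1.47-fold higher in HN4/DDP and 2.75-fold higher in HN30/DDP. In HN30/DDP the pair therefore moved apart.

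DPH6-AS1, which RefSeq calls DPH6-DT, starts beside DPH6, an enzyme that modifies a histidine of elongation factor EEF2. Its level was -2.09, -6.06, -1.94 and -4.15, at least 7.49-fold lower in HN4/DDP and 4.62-fold lower in HN30/DDP. Its other probe differed by -3.73 and -3.67. DPH6 lay between -3.24 and -2.70 on all arrays, with differences of -0.34 (scanner SD 0.238) and -0.27 (scanner SD 0.231).

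The lines were opposed for 2 transcripts, 0.212% beside a background of 0.166%. MCF2L-AS1, partner of the gene MCF2L, was at -2.60, -6.27, -5.10 and -2.49. It was at least 5.25-fold lower in HN4/DDP and at least 4.41-fold higher in HN30/DDP. MCF2L differed by -0.38 and 2.21, but its other 2 probes measured on both HN30 arrays differed by 0.35 and -0.000549 in HN30/DDP. ZNF503-AS1, partner of a zinc-finger repressor gene, was at least 5.61-fold lower in HN4/DDP and 4.40-fold higher in HN30/DDP, and its other 3 probes differed by -0.82 to -0.24 and by 0.55 to 1.97. ZNF503 differed by -0.27 and 0.46.

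**Figure D2:**
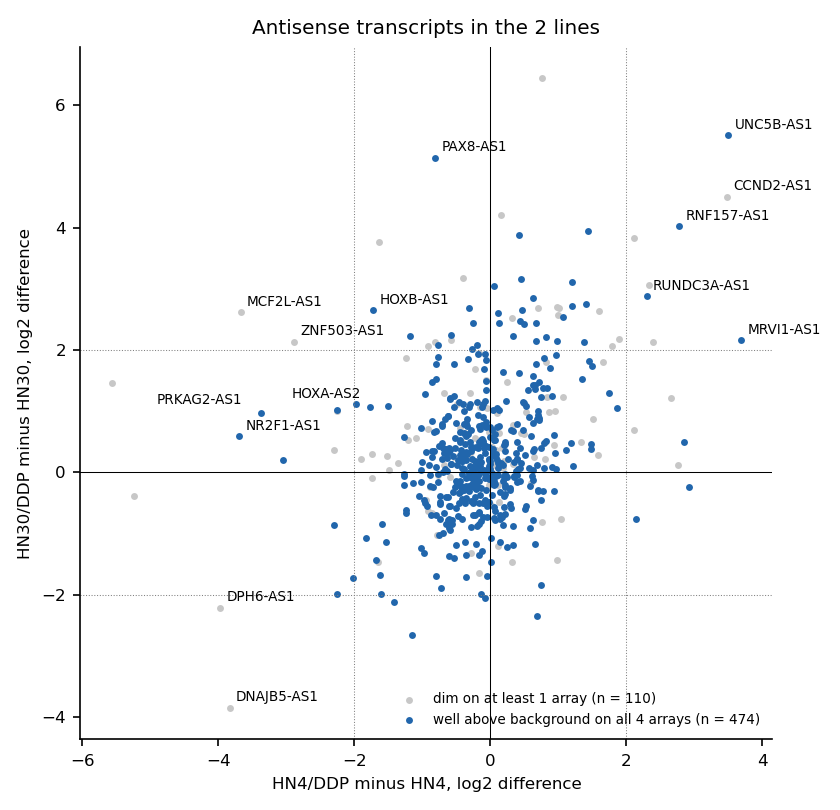
Log2 difference of each antisense transcript in HN4/DDP (x axis) against that in HN30/DDP (y axis), for transcripts well above background on at least 1 array of each line, in blue where all 4 arrays were. Dotted lines mark the call threshold of 2. UNC5B-AS1, measured on all 4 arrays, lies at 3.50 and 5.52 in the upper right. DNAJB5-AS1, in the lower left, was dim in both resistant lines, so its place there is not exact.

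The only contrast with any replication takes both lines as replicates of resistance. In limma, with cell line blocked, 1 residual degree of freedom is left per gene. Of 689 antisense transcripts tested, 0 reached an adjusted p of 0.05 (Benjamini-Hochberg over 29521 gene names), and 58, 8.42%, had an unadjusted p under 0.05, beside 8.59% of all names. The smallest adjusted p of limma among them was 0.398, and over 3 alternatives it ran from 0.425 to 0.671. The value of 0.398 was that of RNF157-AS1 (mean difference 3.40, SE 0.453), UNC5B-AS1 (4.51, SE 0.610) and RUNDC3A-AS1 (2.59, SE 0.362), each higher in 2 of 2 lines.

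The third comparison asks whether a sense gene stood higher or lower when its antisense transcript did. In HN4/DDP the partners that both moved by over 1 went the same way in 23 pairs and opposite ways in 1. In HN30/DDP 41 pairs went the same way and 24 opposite ways, and in 22 of those 24 the antisense transcript was higher and the sense gene lower. As background, 11.1% of all gene names moved past 1 in HN4/DDP and 21.6% in HN30/DDP. That background counts all 43305 names with a value, dim ones included. Pairs counted here had each partner well above background on at least 1 array of the line, which held for 525 pairs in HN4 and 560 in HN30. Among those pairs, the antisense transcript moved past 1 in 97 in HN4/DDP and 188 in HN30/DDP. The sense gene did so in 84 and 191.

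Most moves were of one partner. In HN4/DDP, 73 pairs had only the antisense transcript past 1, 60 only the sense gene and 368 neither. In HN30/DDP these were 123, 126 and 246. Of the pairs that moved together, 13 were higher and 10 lower in HN4/DDP, and 31 were higher and 10 lower in HN30/DDP. With both partners well above background on both arrays of the line, 12 together and 0 apart were left in HN4/DDP, and 19 together and 15 apart in HN30/DDP. In all of those 15 the antisense transcript was higher. With normexp background correction 5 together and 0 apart were counted in HN4/DDP, and 8 and 7 in HN30/DDP. The 1 pair apart in HN4/DDP was RAET1E-AS1 with RAET1E. The antisense transcript differed by -1.27, while RAET1E was dim in HN4 and so at least 1.84-fold higher, a bound under the threshold of 1 in log2.

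Beside a called antisense transcript, the sense gene was mostly within 1. Of the 77 antisense transcripts higher in HN30/DDP, 68 had a measured sense gene, which was past 1 higher in 18, past 1 lower in 9 and within 1 in 41. Of the 22 higher in HN4/DDP, 19 had one, and it was higher in 7, lower in 0 and within 1 in 12. For those lower in HN4/DDP it was within 1 in 13 of 14, all but NR2F1.

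**Figure D3:**
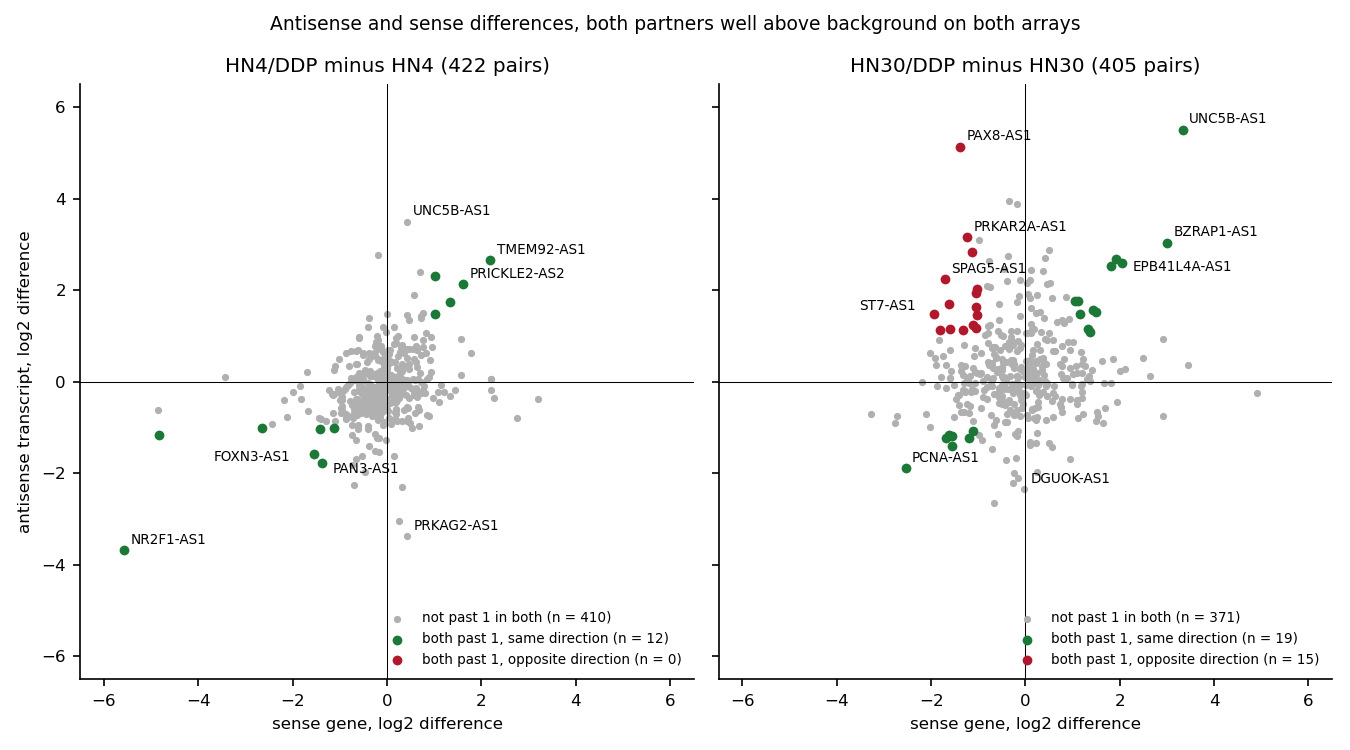
Log2 difference of the sense gene (x axis) against that of its antisense transcript (y axis), for pairs with both partners well above background on both arrays of the line, HN4 on the left (422 pairs) and HN30 on the right (405 pairs). Green points moved past 1 together (12 and 19) and red points moved apart (0 and 15), all of these in the upper left of the right panel.

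Among pairs with both partners measured on both HN4 arrays, the one with the largest common difference in HN4/DDP was that of NR2F1, a nuclear receptor also known as COUP-TF1. NR2F1-AS1 was at 1.54 in HN4 and -2.15 in HN4/DDP, against 0.73 in HN30 and 1.33 in HN30/DDP. NR2F1 was at 1.32 and -4.26, against 1.15 and 1.28. Both partners were thus low in HN4/DDP alone among the 4 arrays, by 12.9-fold for the antisense transcript (log2 scanner SD 0.208) and 47.8-fold for the gene (0.272). The 4 probes of NR2F1-AS1 differed by -3.69, -3.99, -4.47 and -6.11 in HN4/DDP.

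Another 4 pairs moved together in HN4/DDP by the rule for named genes. TMEM92-AS1 was 6.30-fold and TMEM92, a membrane protein gene, 4.57-fold higher. PRICKLE2-AS2 was 4.41-fold and PRICKLE2, a planar cell polarity gene, 3.06-fold higher. FOXN3-AS1 was 3.0-fold lower, and FOXN3, a forkhead repressor, 2.92-fold lower, while the other 2 probes of FOXN3 differed by -1.28 and -0.17. PAN3-AS1 was 3.42-fold lower, and PAN3, a subunit of an mRNA deadenylase, 2.60-fold lower. The other probe of PAN3 differed by -0.84, within 1, so this pair rests on 1 of 2 sense probes. In HN30/DDP, TMEM92-AS1 and TMEM92 were dim in the parental line and at least 1.59-fold and 7.84-fold higher. PRICKLE2-AS2 differed there by -0.76, while PRICKLE2 was at least 1.20-fold higher. In the same line, FOXN3 and PAN3 differed by 0.21 and 0.03 only, while their antisense transcripts differed by -0.84 and 1.07.

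In HN30/DDP, UNC5B-AS1 led the pairs that moved together among those with both partners measured on both arrays. BZRAP1-AS1, named TSPOAP1-AS1 in RefSeq, was at -3.95 and -0.91, and BZRAP1, a RIM-binding protein gene, at -3.36 and -0.36, an 8.24-fold and an 8.01-fold higher level. Another measured probe of the antisense transcript differed by 0.27. EPB41L4A-AS1, also known for the snoRNA it hosts, was 6.09-fold higher (4.97 to 7.57), and EPB41L4A was 4.13-fold higher. In HN4/DDP the same gene was 10.9-fold lower, while its antisense transcript was at 5.47 and 5.59. Another measured probe of EPB41L4A differed by only 0.94 in HN30/DDP and -1.11 in HN4/DDP, so the sizes depend on the probe, and by it the pair would not pass 1 in HN30/DDP. SNAI3-AS1 was 6.43-fold and SNAI3, of the Snail family of repressors, 3.77-fold higher, but the 4 probes of SNAI3-AS1 differed by -0.22, 0.73, 1.40 and 2.68.

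PCNA-AS1 faces PCNA, the sliding clamp of DNA replication. In HN30/DDP it was 3.71-fold lower (-2.07 to -3.96, log2 scanner SD 0.262), and PCNA was 5.81-fold lower (6.81 to 4.27, 0.204). In HN4/DDP the differences were -0.72 for the antisense transcript and -0.64 for PCNA. Both partners were thus lower in both resistant lines, past 1 in HN30/DDP only.

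The pairs that moved apart in HN30/DDP hold genes of several kinds. SPAG5 encodes astrin, a protein of the mitotic spindle. SPAG5 was at 5.06, 4.60, 5.26 and 3.54, and so 3.28-fold lower in HN30/DDP, while SPAG5-AS1 was at -3.54, -4.12, -4.32 and -2.07, and so 4.77-fold higher. Another probe of SPAG5-AS1, also measured, differed by 0.04 in HN30/DDP, so the 2 probes of this transcript disagree.

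PRKAR2A encodes a regulatory subunit of the cyclic AMP-dependent kinase, PKA. By the brighter of its 2 probes, PRKAR2A-AS1 was at -0.42, 0.03, -1.62 and 1.55, which is 8.99-fold higher in HN30/DDP (log2 scanner SD 0.207). The other probe is not given here. PRKAR2A was at -1.11, -1.05, -0.71 and -1.95, which is 2.36-fold lower (0.208). In HN4/DDP the same pair differed by 0.45 and 0.06. ST7-AS1 was 2.78-fold higher and ST7, a gene first described as a tumour suppressor, 3.83-fold lower in HN30/DDP. In HN4/DDP they differed by -0.85 and -1.11. PPP4R1-AS1 was 3.25-fold higher and PPP4R1, a regulatory subunit of phosphatase 4, 3.07-fold lower, while the other probe of PPP4R1-AS1 differed by 0.62.

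PAX8-AS1 was 35.3-fold higher in HN30/DDP (-4.11 to 1.03), and PAX8, a developmental transcription factor, 2.61-fold lower. Of its 5 probes, only this one was well above background on both HN30 arrays. The others differed by -2.05, -0.32, -0.21 and 1.49, so the difference past 2 is seen by 1 of 5 probes. The other 10 pairs apart with both partners measured, listed in full without the rule, were those of CALML3, FLVCR1, ENO1, TAF1A, MRPL23, TMEM9B, CECR5, USP12 through USP12-AS2, and PAXIP1 through both PAXIP1-AS1 and PAXIP1-AS2. Their antisense differences ran from 1.12 for CALML3-AS1 to 2.85 for CECR5-AS1. Their sense differences ran from -1.82 for FLVCR1, a haem exporter, to -1.03 for USP12 and MRPL23. PAXIP1-AS1 and PAXIP1-AS2 share 1 sense value, so they are not separate pairs on the sense side.

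**Figure D4:**
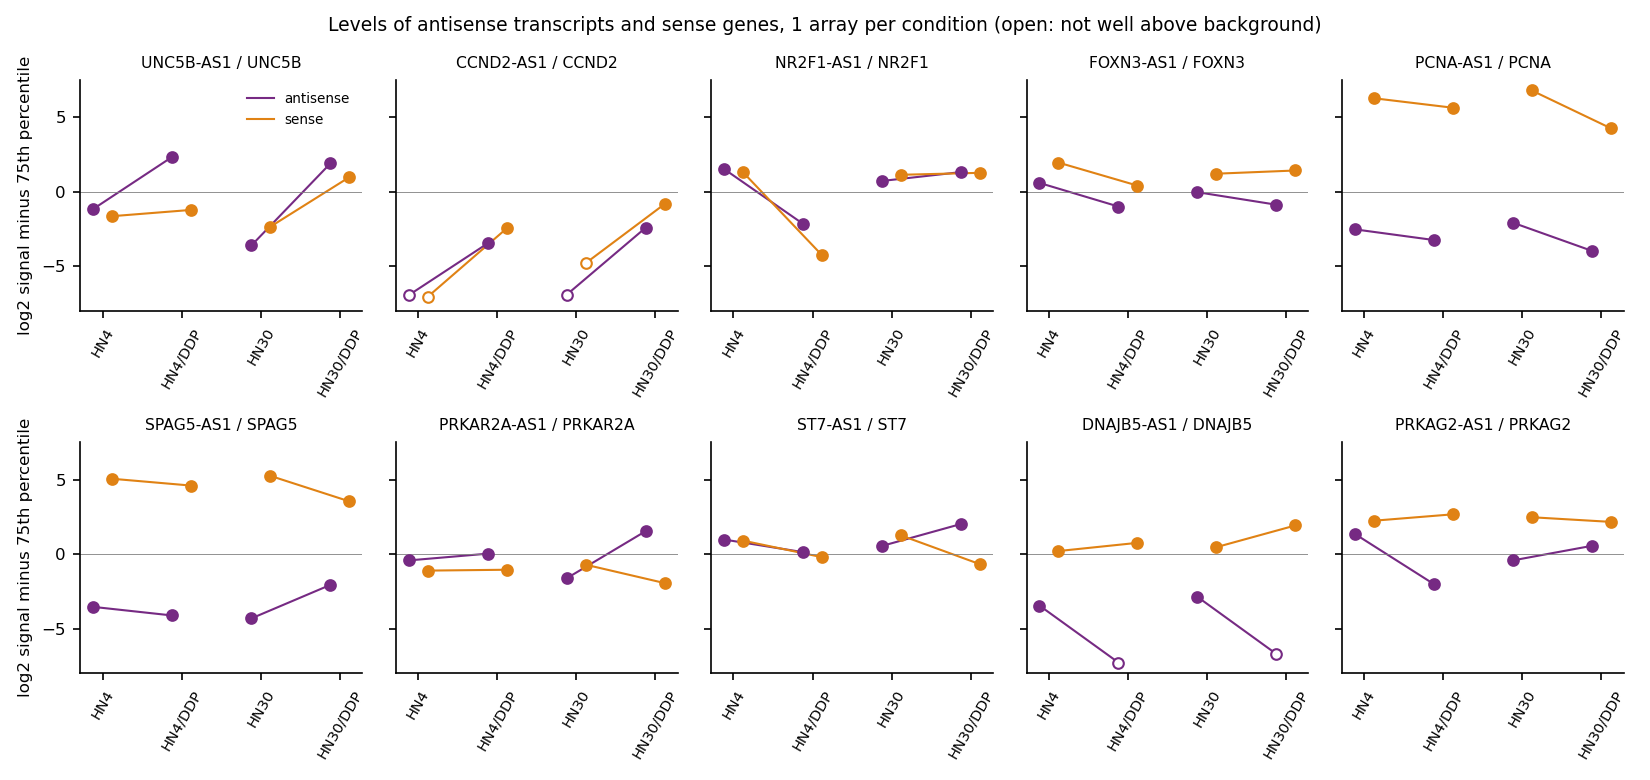
Level on each of the 4 arrays, log2 signal minus the array's 75th percentile, of the antisense transcript (purple) and the sense gene (orange) of 10 pairs, with lines joining each parental array to its resistant array and open circles where the probe was not well above background. The slopes within a probe can be compared, while the heights of different probes cannot. Both partners were low in HN4/DDP for NR2F1, and the slopes from HN30 to HN30/DDP run in opposite directions for SPAG5, PRKAR2A and ST7.

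Several large antisense differences came without one past 1 in a measured sense gene. PRKAG2-AS1 was at 1.36 and -2.01 in HN4 and HN4/DDP, 10.3-fold lower (log2 scanner SD 0.207), and its other probe differed by -2.58. PRKAG2, a gamma subunit of the energy sensor AMPK, was at 2.24 and 2.67. USP30-AS1 was 8.27-fold lower in HN4/DDP, while USP30, a mitochondrial deubiquitinase, differed by 0.26. For LDLRAD4-AS1, 7.58-fold higher in HN4/DDP, no such comparison can be made, since LDLRAD4, a brake on TGF-β signalling, was dim on all arrays.

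In HN30/DDP, DGUOK-AS1 was 5.10-fold lower (1.15 to -1.20), while DGUOK, a mitochondrial deoxyguanosine kinase, was at 3.97 and 3.95. PTPRG-AS1 was 6.32-fold lower and PTPRG, a receptor phosphatase, 1.58-fold lower. The other 4 probes of PTPRG-AS1 differed by -1.76 to -0.78. SOX9-AS1 was 15.5-fold higher (-2.61 to 1.34) by the brightest of its 3 probes, and the others are not given here. SOX9, a lineage transcription factor, differed by -0.36. In HN4/DDP, SOX9-AS1 was 2.71-fold and SOX9 1.65-fold higher.

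Across all pairs with both partners well above background on both arrays, the rank correlation of the differences was 0.31 in HN4 (Pearson's r 0.33, 422 pairs) and 0.081 in HN30 (r 0.12, 405 pairs). The pairs share the same arrays, so these are descriptions without a test. For comparison, the differences of a sense gene and the nearest other mRNA gene had a rank correlation of 0.19 in HN4 (318 pairs) and -0.010 in HN30 (304 pairs). Probes of 1 antisense transcript reached 0.59 (174 transcripts) and 0.49 (159 transcripts), and probes of 1 gene 0.63 and 0.62 over all genes. In both lines the value of the antisense pairs lay between that of neighbouring genes and that of probes that read the same RNA. Intronic transcripts and their host genes stood at 0.66 in HN4 and 0.056 in HN30, over 21 pairs each.

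**Figure D5:**
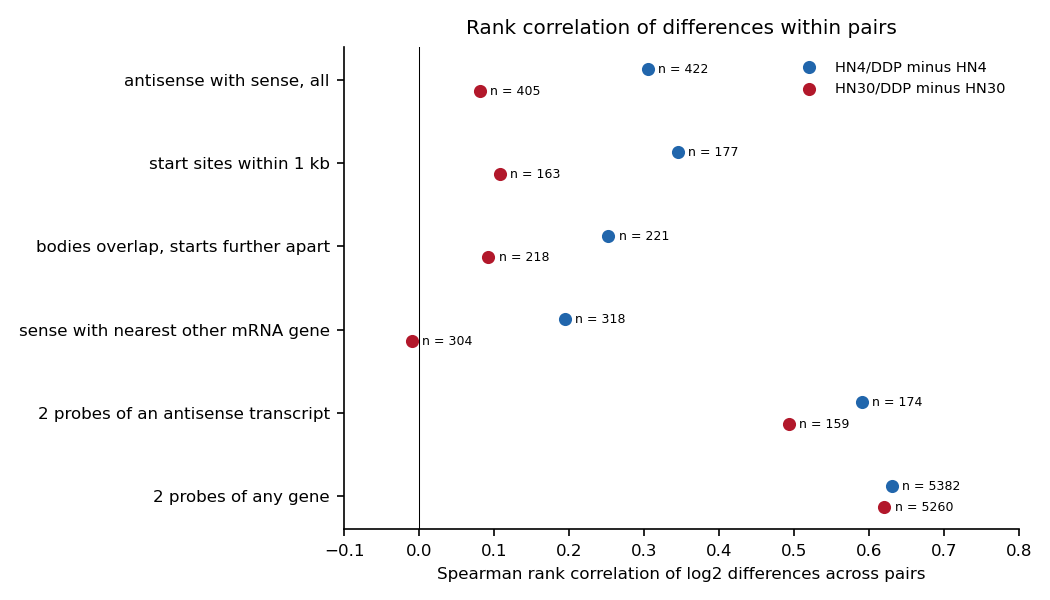
Spearman rank correlation of the log2 differences across pairs (x axis) for 6 kinds of pair, in HN4 (blue) and HN30 (red), with the number of pairs beside each point. Antisense transcripts with their sense genes stood at 0.31 and 0.081, and probes of 1 antisense transcript at 0.59 and 0.49.

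The arrangement of each pair was read from the RefSeq genes of GRCh38.p14, which placed 903 of the 922 pairs. In 282 pairs the start sites lay within 1000 bases of each other, with a median gap of 229.5 bases. In 589 the gene bodies overlapped with starts farther apart, and in 32 they did neither. The rank correlation was 0.34 and 0.11 in HN4 and HN30 where starts were near, and 0.25 and 0.092 where bodies overlapped. Over the few pairs that did neither it was 0.62 in HN4 (15 pairs) and -0.12 in HN30 (13 pairs). In HN30/DDP, 10 pairs with near starts moved together and 13 apart, of 206 measured. Of 319 measured pairs with overlapping bodies, 29 moved together and 11 apart. In HN4/DDP these were 10 together and 0 apart of 204 with near starts, and 11 and 1 of 288 with overlapping bodies. In HN4/DDP, 1 of 282 transcripts with a near start was called higher, RUNDC3A-AS1, 0.355%, against 19 of 589 with overlapping bodies, 3.23%, beside 2.24% of all names. Called lower there were 7 and 10, 2.48% and 1.7% beside 1.36%. In HN30/DDP 28 and 42 were called higher, 9.93% and 7.13% beside 5.48%, and 4 and 3 lower, 1.42% and 0.509% beside 1.8%.

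The promoter of PRKAR2A-AS1 is shown because its pair moved apart in HN30/DDP although the starts lie 63 bases from each other, and that of DPH6-DT because its transcript was low in both resistant lines while DPH6 was not. Each is a RefSeq window around the start, on GRCh38.p14 and the plus strand, at chr3:48847687-48847986 and chr15:35545945-35546244. It shares 162 bases with the window of PRKAR2A in the first case and 129 bases with that of DPH6 in the second. Capitals mark TGACG, the core of the cyclic AMP response element, which factors of the CREB family bind, searched on both strands:
PRKAR2A-AS1: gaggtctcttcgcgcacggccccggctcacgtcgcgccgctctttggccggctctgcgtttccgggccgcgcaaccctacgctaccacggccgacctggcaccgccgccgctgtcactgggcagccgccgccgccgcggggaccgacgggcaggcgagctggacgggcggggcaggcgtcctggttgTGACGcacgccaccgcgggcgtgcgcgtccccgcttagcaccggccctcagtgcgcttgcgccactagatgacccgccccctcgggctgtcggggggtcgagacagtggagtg
DPH6-DT: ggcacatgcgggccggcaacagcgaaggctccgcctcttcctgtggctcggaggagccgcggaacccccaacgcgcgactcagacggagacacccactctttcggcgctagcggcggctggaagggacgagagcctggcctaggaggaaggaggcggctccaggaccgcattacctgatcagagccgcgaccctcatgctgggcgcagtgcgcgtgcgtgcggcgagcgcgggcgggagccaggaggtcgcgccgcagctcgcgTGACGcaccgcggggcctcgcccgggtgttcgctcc

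Of all 27305 promoters in the table, 25% hold TGACG and 1.98% the whole element TGACGTCA, which contains it. Of 695 antisense promoters, 26.9% hold the first and 2.30% the second. Where starts were near, 37.6% of 221 antisense and 38.1% of 236 sense promoters hold TGACG. Of the antisense transcripts higher in HN30/DDP, 13 of 61 with a promoter in the table hold it, 21.3%, and 0 of 61 hold TGACGTCA. Of those higher in HN4/DDP, 1 of 15 holds TGACG, 6.67%, and 0 of 15 hold TGACGTCA. These are matches of letters only.

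Antisense transcripts were also listed by the kind of gene they face. Their calls stand beside backgrounds of 2.24% higher and 1.36% lower among all names in HN4/DDP, and 5.48% and 1.8% in HN30/DDP, and their medians beside -0.16 and 0.12 for all antisense transcripts measured in HN4 and HN30. Of 9 HOX cluster transcripts with a value, which lie among the genes that set body position, HOXB-AS1 was called higher in HN30/DDP and HOXA-AS2 lower in HN4/DDP. HOXB-AS1 was at -3.0, -4.72, -2.62 and 0.03, and its other probe differed by -1.34 and 2.10. HOXA-AS2 was at -1.20, -3.44, -1.52 and -0.50, and its other probes differed by -3.87 and 0.04 in HN4/DDP and so disagree. HOXC-AS1 was higher in both, by 1.96-fold and 3.76-fold, and HOXA-AS3 by 1.68-fold and 1.32-fold. The median difference of the 8 measured on both arrays was -0.01 in HN4 and 0.40 in HN30.

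Of 19 transcripts that face regulators of lineage and of the epithelial-mesenchymal transition, 0 were called in HN4/DDP, and 4 of 19 were higher in HN30/DDP beside 5.48% of all names and 8.17% of antisense transcripts. At a threshold of 1, 7 of the 19 were higher and 0 lower in HN30/DDP, beside 12.9% and 8.67% of all names and 18% and 4.77% of antisense transcripts, and in HN4/DDP 2 were higher and 2 lower. The squamous epithelial and mesenchymal markers did not all move the same way, as given above, and their part in this list was not tested. The 4 were PAX8-AS1, SOX9-AS1, ZEB2-AS1 and HAND2-AS1. ZEB2-AS1 faces ZEB2, a repressor of E-cadherin. It was dim except in HN30/DDP, where its level was -1.81, at least 7.05-fold higher, while ZEB2 differed by -0.17. HAND2-AS1 was at least 9.99-fold higher there by 1 of its 3 probes, and HAND2 was dim on every array. The list's median difference was -0.14 in HN4 and 0.04 in HN30.

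Of 15 transcripts that face genes of the cell cycle, replication and DNA repair, CCND2-AS1 was called higher in both lines and 0 were called lower. PCNA-AS1, DDX11-AS1 and RNASEH1-AS1 were past 1 lower in HN30/DDP. DDX11-AS1, which starts beside the helicase gene DDX11, was 2.43-fold lower there, and DDX11 1.90-fold lower. TOPORS-AS1 was 2.70-fold higher in HN30/DDP, while TOPORS, a ubiquitin ligase gene, differed by -0.12. The list's median difference was -0.14 and -0.08.

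Of 14 transcripts that face hypoxia, stress and growth factor genes, DNAJB5-AS1 was called lower in both lines and 0 were called higher. TGFB2-AS1 was at least 3.33-fold lower in HN4/DDP together with TGFB2, a TGF-β ligand that was at least 7.91-fold lower. ST3GAL6-AS1 was at least 3.32-fold lower there and ST3GAL6, a sialyltransferase, 3.32-fold lower, and the other probe of ST3GAL6-AS1 differed by -1.07. In HN30/DDP, TGFB2 and ST3GAL6 differed by 0.61 and 0.95. HAS2-AS1 was well above background in HN30/DDP only. The list's median difference was -0.24 in HN4 and 0.03 in HN30.

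Of 22 transcripts that face cytoskeleton and adhesion genes, 0 were called in either line. TPT1-AS1 was 3.07-fold higher in HN30/DDP while TPT1, a highly expressed translation-linked protein, was at 8.33 and 8.44. ACTN1-AS1 was 2.11-fold higher there, and PXN-AS1 was 2.35-fold lower in HN4/DDP. ACTN1, an actin crosslinker, and PXN, the focal adhesion protein paxillin, differed by 0.49 and -0.22 in the same lines. DSG1-AS1 was 3.59-fold lower in HN30/DDP, where the desmosomal gene DSG1 was well above background only in the resistant line. The list's median difference was -0.01 in HN4, over 13 measured transcripts, and 0.47 in HN30, over 11, the highest of the 5 lists in HN30.

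Several antisense transcripts can carry the name of 1 gene or cluster. Of 65 such names, 9 had more than 1 antisense transcript measured on both HN4 arrays and 11 on both HN30 arrays. Their antisense transcripts differed in the same direction for 1 of 9 and 7 of 11. In 919 of 922 pairs the array's probes lie on opposite strands. The exceptions are HNRNPU-AS1, PABPC1L2B-AS1 and TUB-AS1, whose probes lie on the strand of the sense gene, and leaving them out kept the counts of pairs at 23, 1, 41 and 24.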

How the data were processed

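The authors deposited the scanner output of 4 one-colour Agilent arrays, 1 per culture (HN4 and HN4/DDP, then HN30 and HN30/DDP), read with Agilent Feature Extraction 10.7.1.1 by the submitters' processing notes. Per the file headers, the deposited intensity of a spot is the processed signal, background-subtracted and not normalized between arrays. Log2 values of the same arrays were deposited too, in a table whose quantiles are equal and which served as an alternative. The methods name no normalization, and the way of combining spots was not given in the sources used here.

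Log2 of the processed intensity minus the array's 75th percentile over 60901 non-control spots was used. Outlier spots, 140 to 204 per array, were dropped, and repeated spots averaged. The brightest probe on average stood for a name, a choice that 431 antisense names with several probes needed. The number of arrays limits the precision. Signals not well above background give bounds against the lowest signal well above background, a level of -4.76, -4.99, -4.63 and -4.94 on the 4 arrays in the order above.

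Antisense transcripts were matched by accession or symbol to RefSeq of GRCh38.p14 (928 of 944), used for names, arrangement and promoters. The named transcripts, 45 with 44 matched, are up to 5 called in both lines in each direction, the 3 largest differences each way per line among those well above background on both arrays, up to 5 pairs per line that moved together or apart, up to 4 per list of antisense transcripts, and those opposed between lines. Members, lists and rules were chosen with earlier results of these data known. Markers, 9 squamous epithelial, 4 mesenchymal, 3 fibroblast, 3 leukocyte and 2 endothelial, checked the cells. Of the mesenchymal ones 3, 4, 2 and 3 were well above background on the 4 arrays, of the fibroblast ones 2 on each, of the leukocyte ones 1, 1, 1 and 2, and of the endothelial ones 2, 1, 1 and 2.

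Resistant and parental arrays were compared in R 4.3.3 by limma 3.58.1 (moderated with an intensity trend, cell line as a block, Benjamini-Hochberg adjustment). As samples were 1 per condition, its p-values measure only the spread between the lines. Steps were tested on simulated data with 200 changed names. Alternatives were normexp background correction with an offset of 50, median scaling, quantile normalization, a pseudocount of 16, the mean of a name's probes, other treatments of dim signals, the deposited log2 values, other thresholds and other sets of pairs. Python 3.11.15, numpy 2.4.6 and pandas 2.3.3 were used.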

Additional observations from a re-analysis of the deposited data

Results flagged for a closer look

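The 2 lines went opposite ways for 2 antisense transcripts, and that difference was not tested, with 1 array per condition. In HN4/DDP, MCF2L-AS1 differed by -3.668, against 2.614 in HN30/DDP, and it was dim in HN4/DDP and in HN30. ZNF503-AS1 differed by -2.877 in the first line, against 2.136 in the second, and it was dim in HN4/DDP.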

How the results depend on the processing

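No paired analysis was possible by replicate number, because the 4 arrays all carry the number 1; the pairing in limma was by cell line. Leaving out an array was not run because no residual degree of freedom is left with the cell line as a block. With 1 array per condition, the calls have no replicate error, and 13 of the 22 transcripts higher in HN4/DDP and 43 of the 77 in HN30/DDP were dim in the parental line. Counts are given here in the order higher and lower in HN4/DDP, higher and lower in HN30/DDP, and higher and lower in both, which were 22, 18, 77, 7, 8 and 2. They were 3, 2, 16, 1, 2 and 0 with normexp background correction, 8, 8, 34, 5, 3 and 0 with a pseudocount of 16, and 51, 60, 170, 45, 26 and 13 at a threshold of 1. With dim signals raised to that array's floor, its lowest signal well above background, they were 10, 12, 50, 7, 4 and 1, and among transcripts well above background on both arrays of the line 9, 7, 34, 5, 4 and 0. Median scaling gave 50 higher and 18 lower in HN30/DDP and 3 lower in both. Quantile normalization gave 12 lower in HN30/DDP, and so did the deposited log2 values, and each gave 3 lower in both.

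Pairs that moved together and apart numbered 23 and 1 in HN4/DDP and 41 and 24 in HN30/DDP. They were 5, 0, 8 and 7 with normexp, 12, 0, 26 and 15 with a pseudocount of 16, and 76, 19, 90 and 65 at a 1.5-fold threshold. They were 17, 0, 30 and 19 with dim signals at that floor and 12, 0, 19 and 15 with both partners well above background on both arrays. The mean of the probes of a name gave 2 apart in HN4/DDP. The cause was not tested, except that the last threshold and the stricter filter count more or fewer pairs by construction. With the trend with brightness taken off, chosen after seeing the data, 46 pairs moved together and 16 apart in HN30/DDP. The rank correlation stayed between 0.285 and 0.309 in HN4 and between 0.054 and 0.103 in HN30 over its alternatives. The other counts stayed within 1.5 times their value, and 0 of the correlations and called differences changed direction. The median antisense difference in HN30/DDP did change sign, from 0.12 to -0.30 with median scaling, -0.14 with quantile normalization, -0.14 with the deposited values and -0.00106 with normexp. Of 1512 differences of named transcripts and their sense genes under the alternatives, 1126 moved by less than the scanner SD.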

Other observations

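DLGAP1 has 4 antisense transcripts that were well above background on all arrays, more than any other name. They differed by -0.66 to -0.00217 in HN4/DDP and by 0.063 to 1.20 in HN30/DDP. PIK3CD, the delta catalytic subunit of PI3K, has antisense transcripts that parted, with differences of -1.27 and 1.08 in HN4/DDP and of -0.02 and 2.54 in HN30/DDP. In the HOXA cluster, HOXA-AS2 and HOXA-AS3 stood at -2.25 and 0.75 in HN4/DDP.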
